A study of Mus musculus with 6 samples.

Results

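The genes described here encode the enzymes that join glutathione, glucuronic acid or sulfate to small molecules. They were chosen by symbol, as every gene with a probe set of its own whose symbol starts with Gst and the letter of a class (a, m, p, t, o, k or z), with Mgst, with Ugt1a, Ugt2a, Ugt2b or Ugt3a, or with Sult, followed by a number. The rule used no difference between the lines, but it was set with earlier results of these data known. Of the 19938 genes measured, 48 were members: 19 cytosolic or mitochondrial glutathione S-transferases (GSTs), 3 microsomal glutathione transferases (MGSTs), 10 UDP-glucuronosyltransferases (UGTs) and 16 sulfotransferases (SULTs). Global gene expression had been compared between NME cells, which are NMuMG mammary gland cells of the mouse transformed by overexpression of EGFR, and AGR cells, which are resistant to the EGFR inhibitor AG1478. AGR cells grew out of a single large colony that NME cells formed in 3D culture with 1 µM AG1478, were expanded in 2D culture, and were kept without the drug. The labels give the same medium for both lines, DMEM with serum and insulin. Total RNA of each line was hybridized to 3 arrays of the type Affymetrix Mouse Gene 1.0 ST. AGR is 1 colony, and nothing states that the 3 arrays of a line came from separate cultures, so each p-value measures the spread between these arrays only.

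Conjugation is the second step in the clearance of drugs, toxins, steroids and bile acids: GSTs use glutathione, UGTs use UDP-glucuronic acid inside the endoplasmic reticulum, and SULTs use the activated sulfate donor PAPS in the cytosol. The water-soluble products leave the cell through ATP-driven pumps of the ABCC family. These enzymes are best known from liver, kidney and gut, and GSTs of the alpha, mu and pi classes also take part in the defence of most epithelia against lipid peroxides and other reactive compounds.

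All values below are log2 of the deposited array intensity, and a difference (log2 FC) is AGR minus NME, so that a negative value is lower in AGR cells. A gene was called when its p-value from limma, adjusted by the Benjamini-Hochberg method over the 19938 genes, was under 0.05. DEGs also had a fold change (FC) above 2. The median log2 intensity over all probe sets (the array median) was 7.60, and a gene whose mean lay under it in both lines is described as dim, since no detection calls were used here. Bright and dim say only on which side of the array median the probe set of a gene lay. They do not rank transcripts, since the brightness of different probe sets also depends on their probes, and differences are given between lines for the same gene.

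The median intensities of the 6 arrays lay between 190.4 and 200.8. Arrays of the same line correlated at 0.995 to 0.997 and arrays of different lines at 0.986 to 0.988 over all probe sets. For 36 genes, AGR replicate 2 lay more than 2-fold away from the average log2 value of its line's remaining arrays. The same measure gave 7 or fewer genes on any other array. No member was among the genes that stood apart in this way on any array. Of all genes, 11.6% were called lower and 12.6% higher. Of the 15 mammary markers, 2 (13.3%) were lower, Krt19 (-1.04 ± 0.04, adjusted p = 1.40e-05) and Cdh1 (-0.60 ± 0.06, adjusted p = 0.000467), and 1 was higher, Gata3 (0.56 ± 0.10, adjusted p = 0.00665). The log2 of the summed intensity of the mammary markers was 15.79 to 15.81 in NME and 15.46 to 15.50 in AGR cells. The keratins Krt8 and Krt18 were bright in both lines, with lowest values of 14.07 and 13.55. In both lines 6 of the 15 mammary markers were dim: Epcam, between 6.47 and 6.64, and Krt5, Krt14, Elf5, Esr1 and Cldn7. Of the 15 hepatocyte markers measured, 6 were lower in AGR cells and 9 were dim in both lines, and the sums were 14.13 to 14.35 in NME and 10.91 to 11.03 in AGR cells. Of the 10 intestinal markers, 6 were lower, with sums of 14.29 to 14.38 in NME and 13.10 to 13.18 in AGR cells. The part of these marker changes in the results below was not tested. Fewer cells expressing a gene and less RNA per cell cannot be told apart in bulk RNA.

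Many conjugating enzymes were lower in AGR than in NME cells, and 1 gene, Gsto2, rose. Of the 48 members, 22 were called lower, where the share of all genes called lower was 11.6%, and 1 was called higher, where that share was 12.6%. With the added threshold on FC, 11 members were lower and 1 was higher, against 1.5% of all genes in each direction. All AGR arrays lay below all NME arrays for 25 members, against 18.5% of all genes, and above them for 2, against 17.9%. The median log2 FC of the members was -0.20 and that of all genes -0.02. The 11 DEGs that fell were Gsta3, Gsta4, Gstm1, Gstm2, Gstm3, Gstp3, Ugt2b34, Ugt2b35, Ugt2b36, Sult1c2 and Sult1d1. Of the 25 members that were not called, 21 were dim in both lines, and the other 4 were Gsto1, Gstz1, Mgst1 and Sult2b1. The members held more dim genes: 45.8% of the 48 lay above the array median in at least 1 line, against 59.8% of all genes.

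**Figure D1:**
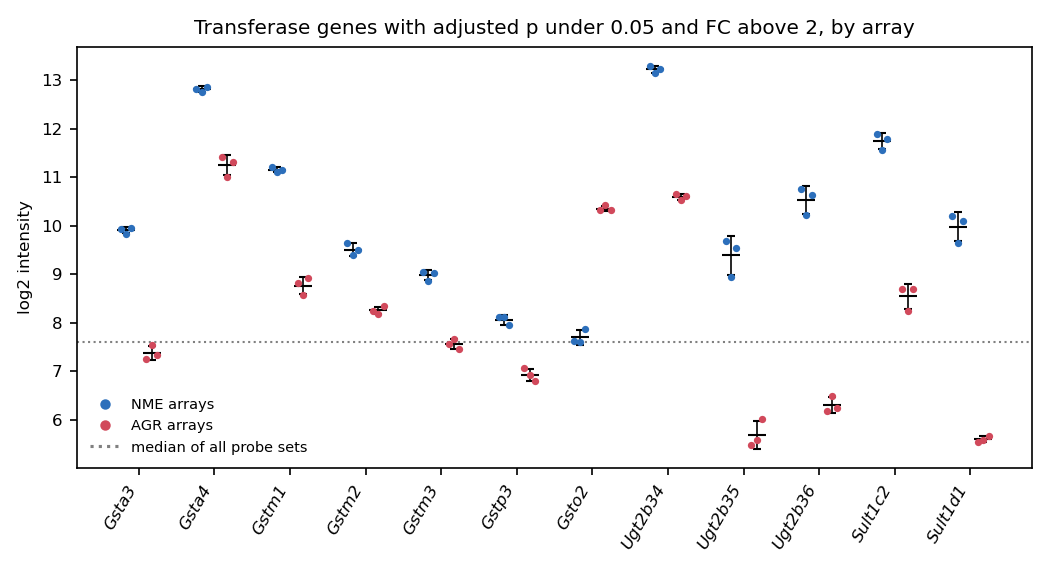
Log2 intensity (vertical axis) of the 12 transferase genes past both thresholds on each of the 3 NME and 3 AGR arrays (points), with the mean and SD of each line (bars) and the array median (dotted line, 7.60). The points of the lines do not overlap for any of the 12 genes, and only Gsto2 is higher on the AGR arrays.

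**Figure D2:**
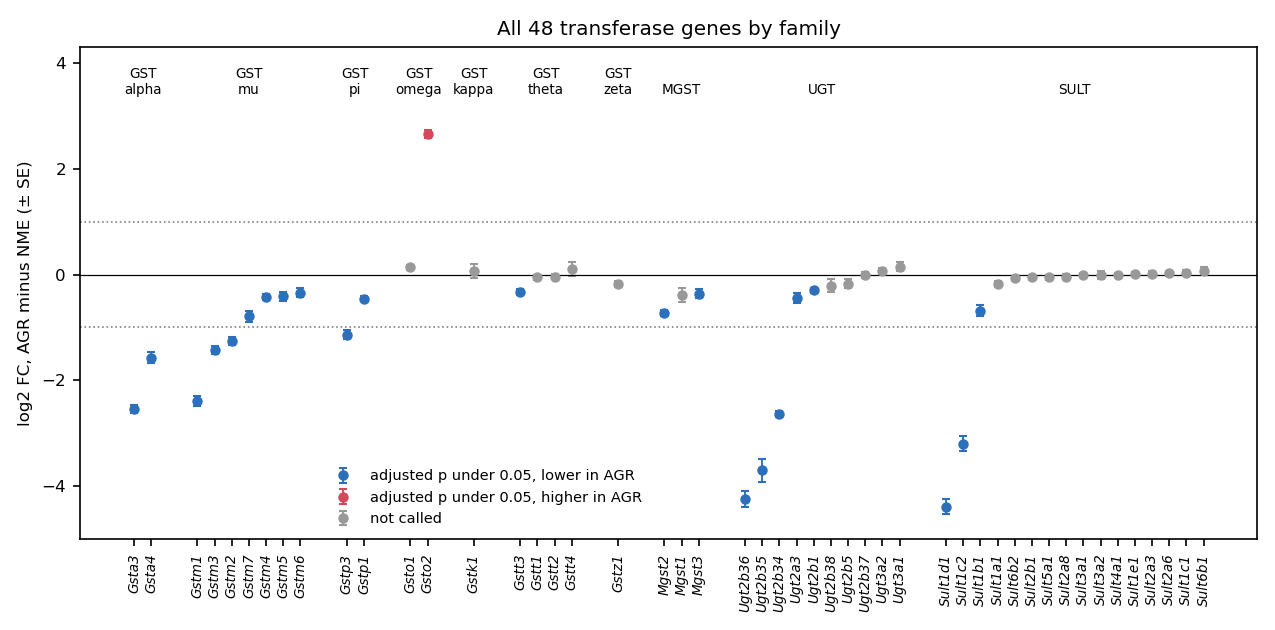
Log2 FC of AGR minus NME with its SE for all 48 members (points), grouped by class, with dotted lines at a FC of 2 in each direction. Every alpha, mu and pi GST lies below 0 and is called, while most SULTs lie close to 0.

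The promoters of 6 of these DEGs are shown as the 250 bases before an annotated start of the gene, because several members that moved together lie side by side and because regulators of the family are described further on. They were taken from RefSeq (GRCm38.p6), which held a promoter for 44 of the 48 members, and are written 5′ to 3′ on the strand of the gene. Gstm1 and Gsto2 each had a further annotated start, whose window is not printed. Capitals mark matches, on either strand, to one of 4 motifs: TGACNNNGC, the core of the antioxidant response element bound by NRF2 with small MAF proteins; GCGTG, the core to which the aryl hydrocarbon receptor binds; GTTAATNAT, part of the site of HNF1 factors; and CAAAGTCCA, a site of HNF4. No matches overlap in the promoters shown.
The windows on the plus strand are chr1:21240335-21240584 for Gsta3 and chr19:47865295-47865544 for Gsto2. Those on the minus strand are chr3:108017974-108018223 for Gstm1, chr5:86906938-86907187 for Ugt2b34, chr5:87092556-87092805 for Ugt2b36 and chr5:87569007-87569256 for Sult1d1.
Gsta3: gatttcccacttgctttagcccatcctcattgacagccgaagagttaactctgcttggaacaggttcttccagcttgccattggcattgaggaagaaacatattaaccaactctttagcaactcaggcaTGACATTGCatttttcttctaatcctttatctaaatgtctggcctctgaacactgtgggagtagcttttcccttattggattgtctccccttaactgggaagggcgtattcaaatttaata
Gstm1: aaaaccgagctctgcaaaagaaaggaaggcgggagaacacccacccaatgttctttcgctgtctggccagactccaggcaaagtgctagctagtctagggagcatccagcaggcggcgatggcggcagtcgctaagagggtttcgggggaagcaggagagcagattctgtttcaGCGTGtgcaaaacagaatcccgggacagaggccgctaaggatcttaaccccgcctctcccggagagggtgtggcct
Ugt2b34: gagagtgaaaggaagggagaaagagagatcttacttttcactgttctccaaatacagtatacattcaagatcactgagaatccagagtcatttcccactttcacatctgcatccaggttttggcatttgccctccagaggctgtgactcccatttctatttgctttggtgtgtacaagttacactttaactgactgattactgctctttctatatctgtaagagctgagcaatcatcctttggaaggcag
Ugt2b36: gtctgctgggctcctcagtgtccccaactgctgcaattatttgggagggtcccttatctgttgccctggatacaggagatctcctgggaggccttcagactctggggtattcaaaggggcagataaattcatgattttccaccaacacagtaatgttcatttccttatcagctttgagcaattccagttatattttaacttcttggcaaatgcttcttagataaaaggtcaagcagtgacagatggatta
Sult1d1: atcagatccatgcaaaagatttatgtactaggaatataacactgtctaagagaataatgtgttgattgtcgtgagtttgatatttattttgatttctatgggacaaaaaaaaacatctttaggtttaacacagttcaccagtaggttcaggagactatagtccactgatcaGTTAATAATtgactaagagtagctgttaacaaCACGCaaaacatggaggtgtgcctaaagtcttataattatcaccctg
Gsto2: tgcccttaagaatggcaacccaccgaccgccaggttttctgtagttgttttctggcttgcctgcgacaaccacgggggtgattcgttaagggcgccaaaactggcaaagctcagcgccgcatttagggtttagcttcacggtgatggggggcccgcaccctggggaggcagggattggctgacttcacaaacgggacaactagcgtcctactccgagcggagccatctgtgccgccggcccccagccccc
The TGACNNNGC match of Gsta3 lay 121 to 113 bases before the start. The GCGTG match of Gstm1 lay 76 to 72 bases before the start used, and 231 to 227 bases before the further start. That of Sult1d1, on the other strand, lay 47 to 43 bases before its start. Sult1d1 also held GTTAATNAT, at 79 to 71 bases. No motif was found in these windows of Ugt2b34, Ugt2b36 and Gsto2, which says only that these letters are not there. Over the 56 promoters of the members, TGACNNNGC was present in 4, or 7.14%, against 10.2% of the 32851 promoters in the table. GCGTG was present in 9 of the 56, or 16.1%, against 28.2% of all promoters. GTTAATNAT was present in 3 (Sult1d1, Sult2a3 and Sult2a6), or 5.36%, against 0.737%, and both Sult2a genes were dim and not called. CAAAGTCCA was present in none, against 0.384% of all promoters.

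Both alpha-class GSTs with a probe set of their own fell. Gsta3, whose product conjugates the reactive epoxide of aflatoxin in mice, read 9.93, 9.83 and 9.96 on the NME arrays and 7.25, 7.53 and 7.33 on the AGR arrays. Its level on every AGR array was below the array median and more than 2 log2 units below the lowest NME array. The log2 FC was -2.54 ± 0.08 (SE), or 5.82-fold lower (adjusted p = 4.62e-06). Gsta4, which removes the lipid peroxidation product hydroxynonenal, read 12.82, 12.75 and 12.87 in NME cells and 11.42, 11.02 and 11.31 in AGR cells. It stayed a bright gene in AGR cells, 2.97-fold below its NME level (log2 FC = -1.57 ± 0.10, adjusted p = 0.000101).

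The mu class fell as a whole, with all 7 measured genes called lower. Gstm1, the most studied mu-class enzyme and an abundant one in mouse liver, changed from 11.21, 11.12 and 11.16 to 8.82, 8.57 and 8.92. The difference of -2.39 ± 0.09 was many times the SD within either line, which was 0.05 in NME and 0.18 in AGR cells (adjusted p = 1.02e-05). Gstm2 read 9.64, 9.39 and 9.50 in NME cells and 8.23, 8.19 and 8.34 in AGR cells, a log2 FC of -1.26 ± 0.08 (adjusted p = 7.00e-05). Gstm3 read 9.06, 8.87 and 9.03 against 7.56, 7.67 and 7.46, a log2 FC of -1.42 ± 0.08 (adjusted p = 4.24e-05). For both genes the ranges of the lines were more than 1 log2 unit apart at the mean, with no overlap. The other mu genes fell by less: the log2 FC was -0.79 ± 0.10 for Gstm7, -0.43 ± 0.05 for Gstm4, -0.41 ± 0.08 for Gstm5 and -0.34 ± 0.08 for Gstm6 (adjusted p = 0.00140, 0.00123, 0.0106 and 0.0219). Gstm4 and Gstm6 were dim in both lines. The call of Gstm6 was lost when NME replicate 1 or 2 or AGR replicate 1 or 3 was left out, with adjusted p-values of 0.0701 to 0.0892.

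The mu genes sit next to each other on chromosome 3. In the RefSeq order the run is Gstm5, Gstm7, Gstm6, Gstm3, Gstm2, Gstm1 and Gstm4, with no other protein-coding gene between them. The 3 DEGs were the consecutive genes Gstm3, Gstm2 and Gstm1, and the genes at the ends fell by less than 1 log2 unit. Of the 5 measured genes on each side, 7 of 10 were not called, 1 was lower and 2 were higher. Of all genes, 11.6% were called lower and 12.6% higher. On the side of Gstm5, the nearest gene Eps8l3, an actin regulator of the EPS8 family, was lower (-1.44 ± 0.11, adjusted p = 0.000160). The next gene Csf1, which encodes the macrophage growth factor, was higher (1.14 ± 0.09, adjusted p = 0.000215). Ahcyl1, beyond Csf1, was also higher (0.36 ± 0.04, adjusted p = 0.00134). On the side of Gstm4, all 5 flanking genes, from Ampd2 to Amigo1, had a log2 FC between -0.11 and 0.07. A shared cause for the run and its flanking genes was not tested. Because mu genes are close copies of each other, their probe sets may bind transcripts of more than 1 gene, and this was not tested.

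**Figure D3:**
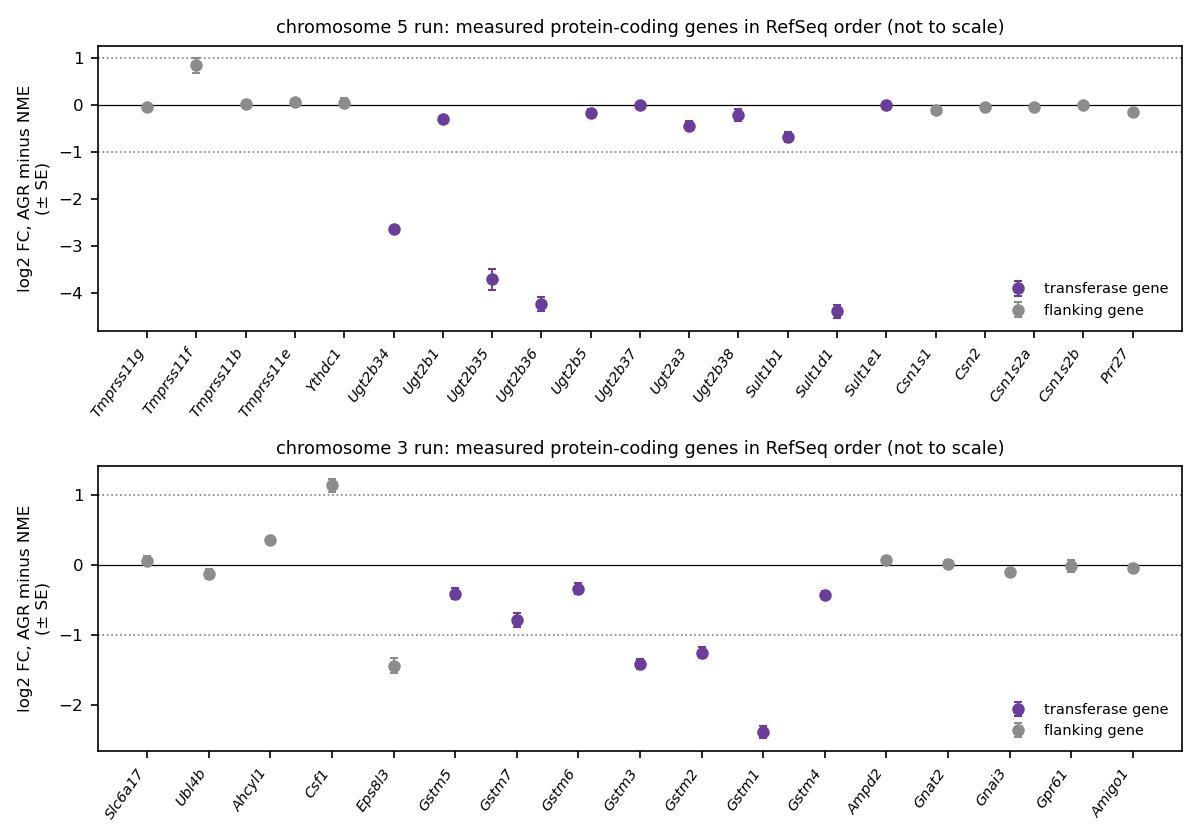
Log2 FC of AGR minus NME with its SE (vertical axis) for the transferase genes of chromosomes 5 and 3 (violet) and the 5 measured protein-coding genes on each side (grey), in RefSeq order along the horizontal axis and not to scale. In the upper panel 4 transferase genes lie below -2, and the other genes lie between -0.69 (Sult1b1) and 0.84 (Tmprss11f). In the lower panel all 7 mu genes lie below 0.

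Both pi-class genes with a probe set of their own were lower. Gstp1, the GST of most proliferating epithelial cells, read 13.40, 13.43 and 13.40 in NME cells and 13.02, 12.91 and 12.92 in AGR cells. It remained among bright signals, and its decrease of -0.46 ± 0.05 was 1.37-fold (adjusted p = 0.000649). Gstp3, a mouse gene near it on chromosome 19, with Gstp2 between them, read 8.11, 8.12 and 7.95 against 7.06, 6.92 and 6.81. This was 2.19-fold lower (log2 FC = -1.13 ± 0.08, adjusted p = 0.000133), and all AGR arrays lay below the array median.

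In the omega class 1 gene rose and the other was not called. Gsto2, an enzyme that recycles dehydroascorbate to vitamin C with glutathione, read 7.62, 7.61 and 7.88 in NME cells and 10.32, 10.42 and 10.33 in AGR cells. Each AGR array was more than 2 log2 units above each NME array. It was the only called increase in the family (log2 FC = 2.65 ± 0.08, or 6.30-fold, adjusted p = 4.48e-06). Gsto1, its neighbour on chromosome 19, was bright on all arrays: 12.98, 12.97 and 12.97 in NME and 13.05, 13.12 and 13.16 in AGR cells. The AGR arrays of Gsto1 lay above the NME arrays by a mean of 0.14 ± 0.05, which was not called (adjusted p = 0.0734). Of the 5 genes measured on each side of the omega pair, 9 of 10 were not called, and the 1 that was, Add3, was lower (-0.58 ± 0.12, adjusted p = 0.0155). The shares over all genes were 11.6% called lower and 12.6% called higher.

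The remaining cytosolic and mitochondrial GSTs changed little. Gstt3 of the theta class read 7.70, 7.81 and 7.69 in NME cells and 7.48, 7.38 and 7.35 in AGR cells. Its decrease of -0.33 ± 0.06 was called (adjusted p = 0.00593), while Gstt1, Gstt2 and Gstt4 were dim in both lines and had a log2 FC between -0.05 and 0.10. Gstz1, which doubles as the maleylacetoacetate isomerase of tyrosine breakdown, read 8.58, 8.42 and 8.52 against 8.28, 8.37 and 8.32. Its arrays did not overlap between lines, but the difference of -0.19 ± 0.06 missed the threshold (adjusted p = 0.0524) and passed it when NME replicate 2 was left out (adjusted p = 0.0311). Gstk1, the mitochondrial and peroxisomal kappa enzyme, was dim at 5.46, 5.52 and 5.61 in NME cells and 5.92, 5.40 and 5.47 in AGR cells, and the lines overlapped.

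The membrane-bound MGSTs, which also reduce lipid hydroperoxides, were bright in both lines, and 2 of the 3 were called lower. Mgst2 read 10.67, 10.53 and 10.67 in NME cells and 9.89, 9.88 and 9.92 in AGR cells, without overlap (log2 FC = -0.73 ± 0.05, adjusted p = 0.000143). Mgst1 read 11.08, 10.78 and 11.05 against 10.67, 10.33 and 10.78. The lowest NME array and the highest AGR array of Mgst1 nearly met, and the difference of -0.38 ± 0.13 was not called (adjusted p = 0.0902). The log2 FC of Mgst3 was -0.36 ± 0.09 (adjusted p = 0.0229), and its call was lost without NME replicate 1, NME replicate 3 or AGR replicate 3, with adjusted p-values of 0.0649 to 0.0851.

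The UGTs that were bright in NME cells fell steeply. Ugt2b34 read 13.29, 13.16 and 13.24 in NME cells and 10.65, 10.53 and 10.62 in AGR cells. The SD was 0.07 in each line, so that the decrease of -2.63 ± 0.06, or 6.19-fold, was far outside the spread between arrays (adjusted p = 1.47e-06). Enzymes of the Ugt2b group act on steroids, bile acids and phenols. Ugt2b36 read 10.75, 10.22 and 10.64 against 6.17, 6.49 and 6.24, which was 18.8-fold lower (log2 FC = -4.23 ± 0.15, adjusted p = 7.75e-06). Ugt2b35 read 9.69, 8.93 and 9.55 against 5.48, 5.57 and 6.01, which was 13.0-fold lower (log2 FC = -3.70 ± 0.22, adjusted p = 6.69e-05). For Ugt2b35 and Ugt2b36, NME replicate 2 was the lowest of the NME arrays, and all AGR arrays were below the array median.

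The other UGTs of the Ugt2 group were dim in both lines. Ugt2a3 (-0.44 ± 0.09, adjusted p = 0.0134) and Ugt2b1 (-0.29 ± 0.05, adjusted p = 0.00408) were called lower, the former not without AGR replicate 3 (adjusted p = 0.0647). Ugt2b5, Ugt2b37 and Ugt2b38 were not called, at -0.18 ± 0.09, -0.0047 ± 0.05 and -0.21 ± 0.12, although Ugt2b38 was called when NME replicate 2 was left out (-0.35, adjusted p = 0.0242). Ugt3a1 and Ugt3a2, whose enzymes use sugars other than glucuronic acid, were dim and not called, at 0.15 ± 0.09 and 0.07 ± 0.06. No gene of the Ugt1a locus, which makes the bilirubin-conjugating enzyme, had a probe set of its own. The probe set assigned jointly to 8 Ugt1a genes read 11.04, 10.92 and 10.99 in NME cells and 10.38, 10.33 and 10.39 in AGR cells, a difference of -0.62 that was not tested.

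Among the SULTs, 2 genes were DEGs and both fell. Sult1d1, the enzyme that sulfates dopamine and other catecholamines in mice, read 10.20, 9.65 and 10.10 in NME cells and 5.54, 5.59 and 5.67 in AGR cells. It was 20.9-fold lower (log2 FC = -4.39 ± 0.14, adjusted p = 4.62e-06), a fold that rests on a dim AGR level, like those of Ugt2b35 and Ugt2b36. Sult1c2, a phenol sulfotransferase, read 11.89, 11.56 and 11.80 against 8.69, 8.25 and 8.70. It was 9.19-fold lower but still above that level (log2 FC = -3.20 ± 0.14, adjusted p = 1.80e-05). Sult1b1, which acts on thyroid hormones, was dim in both lines and changed by -0.69 ± 0.10 (adjusted p = 0.00362). Sult2b1, the sulfotransferase of cholesterol and pregnenolone, read 9.87, 9.94 and 9.90 against 9.79, 9.94 and 9.81. Its lines overlapped, with a log2 FC of -0.06 ± 0.06 (adjusted p = 0.571).

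The other 12 SULTs were dim on the arrays of both lines and were not called: Sult1a1, Sult1c1, Sult1e1, Sult2a3, Sult2a6, Sult2a8, Sult3a1, Sult3a2, Sult4a1, Sult5a1, Sult6b1 and Sult6b2. They include the estrogen sulfotransferase Sult1e1 and the hydroxysteroid and bile acid enzymes of the Sult2a group. Their log2 FC ranged from -0.17 for Sult1a1 to 0.07 for Sult6b1. Sult1c1, the neighbour of Sult1c2 on chromosome 17, read 5.23 to 5.27 in NME and 5.27 to 5.34 in AGR cells.

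The DEGs among the UGTs, and Sult1d1, share a stretch of chromosome 5. Its RefSeq order is Ugt2b34, Ugt2b1, Ugt2b35, Ugt2b36, Ugt2b5, Ugt2b37, Ugt2a3, Ugt2b38, then 2 genes without a probe set of their own, then Sult1b1, Sult1d1 and Sult1e1. Of the 11 members in this run, 7 were called lower and 4 of those were DEGs, whose promoters, apart from that of Ugt2b35, are among those printed above. The DEGs were not all consecutive: Ugt2b1 between Ugt2b34 and Ugt2b35 fell by only 0.29, and Sult1b1 and Sult1e1 on the sides of Sult1d1 were dim in both lines. The 5 genes measured on each side of the run, from Tmprss11g to Ythdc1 and from the casein gene Csn1s1 to Prr27, included 0 called lower and 1 called higher, the protease gene Tmprss11f (0.84 ± 0.15, adjusted p = 0.00684). Over all genes, 11.6% were called lower and 12.6% higher. Ythdc1, which borders Ugt2b34 and encodes a nuclear reader of methylated RNA, was bright in both lines and had a log2 FC of 0.05 ± 0.10. The other flanking genes were dim in both lines.

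Genes that supply, export and control the reactions of the family were followed in 5 lists, of which 91 genes were measured. In these lists 31 genes (34.1%) were lower and 15 were higher, against 11.6% and 12.6% of all genes, and their median log2 FC was -0.10. The lists held more bright genes: 81.3% lay above the array median in at least 1 line, against 59.8% of all genes. When genes dim in both lines were left out and p-values adjusted again, 19.3% of the 11928 remaining genes were called lower. Of the list genes, 74 were among these. Without the new adjustment, 45 of the 74 were called in either direction, against 4484 of the 11928. Of the 33 genes of glutathione synthesis, recycling and breakdown, 11 were lower and 5 higher. Gss, glutathione synthetase, was 1.79-fold lower (-0.84 ± 0.06, adjusted p = 0.000160). Hpgds, a GST-like enzyme that makes a prostaglandin, was lower (-0.82 ± 0.07, adjusted p = 0.000223), as was Acy3, which deacetylates the mercapturic acids formed from glutathione conjugates (-0.89 ± 0.06, adjusted p = 0.000126). Chac1, which degrades glutathione, was lower (-0.45 ± 0.05, adjusted p = 0.000784). Gpx8, a peroxidase of the endoplasmic reticulum, was the 1 DEG of the list and rose from 7.44 ± 0.08 to 9.62 ± 0.26 (SD, n = 3, log2 FC = 2.18 ± 0.12, adjusted p = 5.53e-05).

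Further genes of glutathione supply and recycling, chosen for mention after their values were seen, were in part lower and in part not called. Gclc, the catalytic subunit of glutamate-cysteine ligase, was lower (-0.65 ± 0.13, adjusted p = 0.0117), as was the cystine transporter Slc7a11 (-0.69 ± 0.15, adjusted p = 0.0142). The call of Gclc was lost without NME replicate 1 or 3 (adjusted p = 0.0560 and 0.0501), and that of Slc7a11 without any 1 NME array or without AGR replicate 3 (adjusted p = 0.0511 to 0.0703). The regulatory subunit Gclm and the reductase Gsr were bright and not called, at 0.12 and -0.02.

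Donor supply for the UGTs and SULTs changed in single genes. Slc35d1, which carries UDP-glucuronic acid into the endoplasmic reticulum, was 3.06-fold lower (-1.61 ± 0.06, adjusted p = 8.16e-06) and Ugp2, which makes UDP-glucose, was lower (-0.42 ± 0.10, adjusted p = 0.0186). Gusb, the β-glucuronidase that cleaves glucuronides, rose (0.64 ± 0.06, adjusted p = 0.000433), and so did Uxs1, which turns UDP-glucuronic acid into UDP-xylose (0.41 ± 0.05, adjusted p = 0.00184). Ugdh, which makes UDP-glucuronic acid, was not called (-0.16). Of the 15 genes of PAPS supply and sulfate removal, 5 were lower and 3 higher, against 11.6% and 12.6% of all genes. The sulfate transporter Slc26a2 was 3.85-fold lower (-1.95 ± 0.10, adjusted p = 3.06e-05). Papss2, a PAPS synthase, was lower (-1.20 ± 0.13, adjusted p = 0.000915), whereas its paralog Papss1 was higher (0.51 ± 0.11, adjusted p = 0.0166). Arsb and Tpst1, a lysosomal sulfatase and a Golgi sulfotransferase of protein tyrosines, were higher by 0.72 ± 0.08 and 0.82 ± 0.12 (adjusted p = 0.000983 and 0.00324), and Bpnt1, which removes the product of PAPS, changed by -0.23 ± 0.05 (adjusted p = 0.0142). Single arrays decided the calls of Ugp2, lost without NME replicate 1 or 3 or AGR replicate 1 (adjusted p = 0.0578 to 0.0817), of Papss1, lost without AGR replicate 1 or 3 (adjusted p = 0.0655 and 0.0800), and of Bpnt1, lost without NME replicate 1 or AGR replicate 3 (adjusted p = 0.0544 and 0.0563).

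Among the 8 export pumps measured, 3 were lower and 1 was higher, against 11.6% and 12.6% of all genes. Abcc2 and Abcc3, the pumps for conjugates at the apical and basolateral membrane of hepatocytes, were 2.59-fold and 2.14-fold lower (log2 FC = -1.37 ± 0.07 and -1.10 ± 0.06, adjusted p = 4.24e-05 and 5.03e-05). Abcc4 was lower (-0.79 ± 0.06, adjusted p = 0.000182). Abcc1, the widely expressed pump for glutathione conjugates, read 10.96, 10.98 and 10.98 in NME cells and 11.94, 11.98 and 11.94 in AGR cells, 1.98-fold higher without overlap (adjusted p = 1.23e-05).

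Of the 28 transcription regulators, 10 were lower and 4 higher, against 11.6% and 12.6% of all genes. Hnf4a, a nuclear receptor that activates many conjugating enzymes in liver, fell from 13.17 ± 0.02 to 11.96 ± 0.05 (SD, n = 3), or 2.31-fold (log2 FC = -1.21 ± 0.04, adjusted p = 8.49e-06). Foxa2 was lower (-0.80 ± 0.07, adjusted p = 0.000326), while Foxa1, a pioneer factor of mammary luminal cells, rose 2.48-fold (1.31 ± 0.08, adjusted p = 5.88e-05). Nfe2l2, which encodes NRF2, and its competitor Bach1 were both lower (log2 FC = -0.54 ± 0.06 and -0.47 ± 0.05, adjusted p = 0.000929 and 0.000531). Ahr, the aryl hydrocarbon receptor, was higher (0.64 ± 0.06, adjusted p = 0.000488). No binding of these factors was measured, and their part in the change of the transferase genes was not tested.

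**Figure D4:**
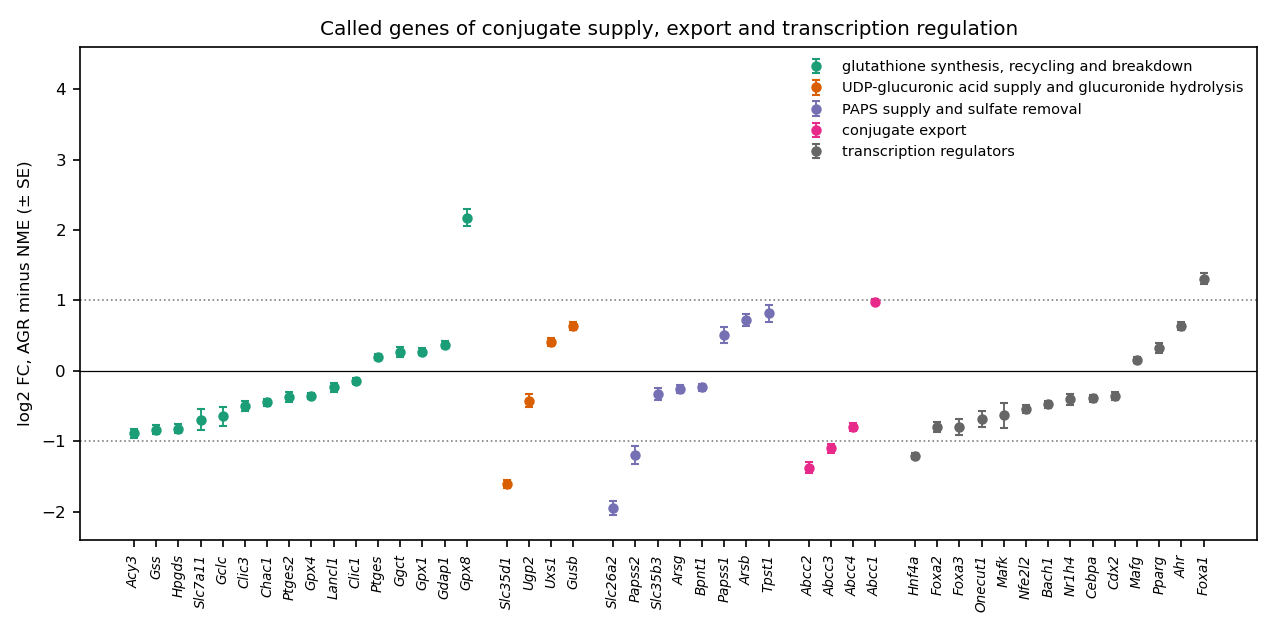
Log2 FC of AGR minus NME with its SE (vertical axis) for the 46 called genes of the 5 lists around the transferases, coloured by list, with dotted lines at a FC of 2. More of these genes lie below 0 (31) than above it (15), with Slc26a2 lowest and Gpx8 highest.

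Of the 15 hepatocyte markers, 6 were lower, 0 were higher and 9 were not called. The shares of all genes were 11.6% called lower and 12.6% called higher. Alb and Ttr, which encode secreted plasma proteins, fell by 6.36 and 5.12 on the log2 scale (adjusted p = 2.09e-06 and 4.48e-06). Serpina1c, Fgb, Apoa1 and Cps1 were also lower, with a log2 FC of -5.50, -3.03, -1.54 and -0.42 (adjusted p = 1.95e-06, 1.78e-05, 7.26e-05 and 0.00143). Tat, Hpd, Cyp2e1, Ahsg, F2 and Tdo2, further defining genes of hepatocytes, were dim on all arrays of both lines. In the intestinal list 6 genes were lower and 0 higher, and its DEGs were Lgals4 (-5.60, adjusted p = 4.59e-08) and Vil1 (-1.28, adjusted p = 8.15e-05). The fibroblast list had 0 of 9 genes lower and 1 higher, and the sums were 10.80 to 10.94 in NME and 10.83 to 10.93 in AGR cells. The immune list had 0 of 7 genes lower and 2 higher, and the sums were 9.98 to 10.04 against 10.34 to 10.40. Of 7 endothelial genes, 0 were called. Of 5 adipocyte genes, 1 was lower.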

How the data were processed

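Titles of the samples gave each array's cell line. The authors deposited array intensities on a linear scale for 35557 probe sets, already processed. MAS5 is the tool named in the submitters' processing notes, with neither version nor settings, and this array type carries no mismatch probes, so how the values were normalized is unknown. No normalization was added, and log2 was taken without an offset. Of the probe sets with exactly 1 symbol in the platform annotation, the brightest on average stood for its gene, and 12 probe sets of these families with several symbols were left out of the tests. The lines were compared by lmFit and eBayes of limma 3.58.1 in R 4.3.3, and p-values were adjusted after Benjamini and Hochberg over 19938 genes. The number of arrays limits the precision. The limma step was also tested on simulated data.

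The members and the lists of other genes were chosen with earlier results of these data known. Values of every array are given for DEGs and for the gene with the highest mean in each class, log2 FC for the other called members, and in each list the DEGs and up to 4 further genes with the smallest adjusted p. RefSeq (GRCm38.p6) supplied promoters, names for all 48 members and the order of genes. The build behind the array's annotation is not given in the sources used here. Promoter windows were searched for the motifs with regular expressions. Results were recomputed after quantile normalization, after centring, without dim genes, with averaged probe sets, with trend and robust options in eBayes, with the two-sided test of the methods, with an offset of 16, with the replicate number as a block and without each array in turn.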

Additional observations from a re-analysis of the deposited data

How the results depend on the processing

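The 12 DEGs of the family kept their direction and both thresholds in all 14 alternatives, each array left out in turn included. The number of members called lower, 22 in the report, was 22 after quantile normalization and after centring. It was 23 with an offset of 16, 22 with trend and robust settings and 18 with the methods' two-sided test. When genes dim in both lines were left out, it was 18 of the 22 members that remained. When single arrays were left out, it was 19 to 23. The number called higher rose from 1 to 2, with Gsto1 added, after quantile normalization (0.18, adjusted p = 0.0207) and with trend and robust settings (0.14, adjusted p = 0.0287). At an unadjusted p under 0.05, 27 members passed. Over all members and alternatives 627 values kept their side of the threshold, 12 lost it, 7 gained it, and no called value changed sign. The sign of 9 members that were not called (Gstk1, Gstt4, Sult1e1, Sult2a3, Sult2a6, Sult3a1, Sult3a2, Sult4a1 and Ugt2b37) differed between alternatives. The losses outside those named in the report were under the methods' two-sided test, for Gstm5, Gstm6, Mgst3 and Ugt2a3 (adjusted p = 0.0632, 0.0943, 0.101 and 0.0765). Gstz1 gained with an offset of 16 and with the filter on dim genes (adjusted p = 0.0476 and 0.0398). In the 5 lists of other genes, 73 values lost the threshold and 19 gained it, and the number of called genes was 34 to 50 against 46.

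The titles number the arrays of each line from 1 to 3, but the deviations of arrays with the same number from their line's mean correlated at -0.13, 0.33 and 0.26, and 1 of the 3 AGR arrays correlated best with its own number, so the numbers were not taken as pairs. With the replicate number as a block, 23 members were lower and 1 higher. The added gene was Mgst1 (adjusted p = 0.00631). With 3 arrays a line, no detection calls and an unknown normalization, small differences of dim genes are the least certain.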

Other observations

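Probe sets that the annotation assigns to more than 1 gene of the family were outside the tests, and their values are given as differences of the means of 3 arrays. The 4 probe sets shared by genes of the alpha class read 8.77 to 10.01 on the NME arrays and 7.66 to 8.52 on the AGR arrays, and the differences were -1.60, -1.50, -0.99 and -1.04. The 2 probe sets shared by pi genes differed by -0.59 and -0.58. The 2 sets shared by the Ugt3a genes differed by 0.11 and 0.11, and those shared by Ugt2a genes or by Sult2a genes by 0.0026, -0.02 and -0.03 at levels no higher than 5.14. Gstm3 had a second probe set of its own, which read 9.26, 9.14 and 9.17 in NME cells and 7.25, 7.19 and 7.22 in AGR cells, a difference of -1.97 against -1.42 for the probe set used.

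Some genes beside the smaller groups of members were called too, where 11.6% of all genes were called lower and 12.6% higher. The counts below were not tested against these shares. Of the 5 measured genes on each side of the theta GSTs on chromosome 10, 4 of 10 were lower and 0 higher. They were Ddt and Mif, which encode related tautomerases and lie beside the theta genes, Mmp11 and Chchd10, at -1.01 ± 0.10, -0.38 ± 0.05, -0.29 ± 0.05 and -1.53 ± 0.18. Of the 5 on each side of the pi GSTs, 3 of 10 were lower: Acy3, Nudt8 and Cdk2ap2, at -0.89 ± 0.06, -0.18 ± 0.05 and -0.19 ± 0.05.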
